A study of Mus musculus with 2 samples.

Results

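The E2 ubiquitin-conjugating enzymes were described in total RNA of mouse erythroblasts, the cells that still hold a nucleus before they become red blood cells. The family was taken as every protein-coding gene in both gene tables whose GENCODE mouse symbol begins with Ube2, which gave 37 genes among 43346 gene rows and among 21461 nuclear protein-coding genes. The symbol alone made a gene a member, so a member such as Ube2cbp need not be an E2 enzyme. Ube2o, Ube2l6 and Ube2h, named in that choice as linked to the erythroid lineage, were set against the other 34 members. The samples were 2 libraries of a single group, numbered by the labels as biological replicates 1 and 2, and no second condition was part of the design. The mice were males of the C57BL/6J strain, adult at 5 to 6 weeks of age, and the erythroblasts were primary cells, with no genetic change or treatment stated. The input to each was 1 ng of RNA, and spike-ins were used. The labels list separate biosamples under 1 donor entry and do not say whether these were separate animals, so the spread between libraries may be technical. Titles of the linked protocols name progenitors isolated from bone marrow and libraries from pools of 100 cells.

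An E2 enzyme takes ubiquitin, or a related modifier such as SUMO, NEDD8 or ISG15, from an E1 activating enzyme onto a catalytic cysteine and, with an E3 ligase, passes it to a substrate. The E2 decides much of the outcome, since some members attach the first modifier to many substrates and others extend chains of a given linkage. In maturing red cells the ubiquitin system removes organelles, ribosomes and other proteins. Ube2o, a large enzyme that joins E2 and E3 activity, is known in mouse reticulocytes for marking ribosomal proteins and unassembled globin for removal. Ube2h is the E2 of the CTLH ligase, and Ube2l6 is an E2 for ISG15 that can also carry ubiquitin.

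Most E2 enzymes share a short catalytic stretch, His-Pro-Asn followed by the active-site cysteine, and its coding DNA is shown for 5 of the most abundant members that have it, for Ube2l3 and Ube2a, whose levels are compared with those of Ube2l6 and Ube2b, and for Ube2k, which shares the spacing of Ube2h. The letters were read 5′ to 3′ along the gene from GENCODE M21 transcripts (GRCm38, the mm10 build). The 3 codons of His-Pro-Asn and the cysteine codon are in capitals and the codons between them in lower case.
Ube2l6: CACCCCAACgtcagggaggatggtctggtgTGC
Ube2l3: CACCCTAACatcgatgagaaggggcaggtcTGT
Ube2h: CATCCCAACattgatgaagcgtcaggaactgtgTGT
Ube2k: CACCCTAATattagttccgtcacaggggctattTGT
Ube2b: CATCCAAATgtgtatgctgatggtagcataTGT
Ube2a: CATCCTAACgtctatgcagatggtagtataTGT
Ube2c: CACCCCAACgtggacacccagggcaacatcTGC
Ube2r2: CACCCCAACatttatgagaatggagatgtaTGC

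The Ube2l6 stretch lies in a single exon at chr2:84806439-84806471 on the plus strand, and its cysteine is codon 86. The Ube2l3 stretch lies at chr16:17160042-17160074 on the minus strand, also with the cysteine at codon 86, and shares 22 of 33 bases (66.7%) with that of Ube2l6. The Ube2h stretch is split by an intron within chr6:30241409-30242557 on the minus strand. Its cysteine stands 9 codons after the asparagine, as in Ube2k at chr5:65581410-65581445 on the plus strand, and these stretches share 21 of 36 bases. The Ube2b stretch, split within chr11:51988678-51991403 on the minus strand, shares 28 of 33 bases (84.8%) with that of Ube2a, split within chrX:36881737-36882621 on the plus strand. The Ube2c stretch lies at chr2:164771947-164771979 on the plus strand and shares 19 of 33 bases with that of Ube2r2, which is split within chr4:41174110-41183259 on the plus strand.

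In all, 22 of the 37 members carried His-Pro-Asn codons with a cysteine codon behind them. The cysteine stood 8 codons after the asparagine in 20 members and 9 codons after it in 2. Ube2u had the His-Pro-Asn codons alone, and 14 members had none in the transcript read, Ube2o among them. The Ube2o coding sequence has 1288 codons, against 153 in Ube2l6 and 183 in Ube2h. Ube2v1 and Ube2v2, known as variants that lack the catalytic cysteine, were also among the 14. No match says only that these letters were not in the transcript read.

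The libraries held 80806663 expected counts in replicate 1 and 117032607 in replicate 2, of which nuclear protein-coding genes took 4393962 and 6815842. Nuclear protein-coding genes made up 4.68% and 5.10% of the deposited TPM, so levels are given as rescaled TPM, the deposited TPM (a measure corrected for length and scaled to a fixed total) divided so that nuclear protein-coding genes sum to 1000000. A rescaled TPM of 1 equals 0.0468 deposited TPM in replicate 1 and 0.0510 in replicate 2. The 16 erythroid marker genes were all detected and summed to 455050 and 451391 rescaled TPM, mostly globin. All 15 neutrophil markers were also detected, with S100a9, Ngp and Mpo among them, and summed to 45055 and 47555. The median of the erythroid markers was 1778 and 1800, against 997 and 981 for the neutrophil markers. Outside the globins Slc4a1 was the highest erythroid marker at 5562 and 5083, below S100a9 at 14200 and 16292. All 12 monocyte and macrophage markers were detected at sums of 4624 and 4917, against 2 of 8 B lineage markers, 2 of 7 T and NK markers and 5 of 6 megakaryocyte markers. Ebf1, Cd3d and Cd8a had 0 counts in both libraries. The detected B lineage markers were Ighm at 248 and 239 rescaled TPM and Cd79b at 10.9 and 16.5. The detected T and NK markers were Nkg7 at 108 and 126 and Cd4 at 7.06 and 6.47. The share of each E2 transcript that came from cells other than erythroblasts was not tested, and in bulk RNA the number of cells of a type and the RNA per cell cannot be told apart.

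The family held 27479 expected counts in replicate 1 and 41244 in replicate 2. Its summed level was 4338 and 4056 rescaled TPM, so that the family made up 0.434% and 0.406% of nuclear protein-coding TPM. A member was called detected at a rescaled TPM of 1 or more in both libraries, and 32 of 37 members were detected, where 42.9% of all nuclear protein-coding genes were. At 100 or more in both libraries stood 10 members, where 3.86% of nuclear protein-coding genes stood so high. These were Ube2l6, Ube2o, Ube2b, Ube2c, Ube2r2, Ube2h, Ube2f, Ube2d3, Ube2v1 and Ube2s. A further 11 members averaged 20 to 100, and 10 detected members averaged under 20. The median of the detected members was 41.3 and 42.9 rescaled TPM, against 14.5 and 14.5 for all detected nuclear protein-coding genes.

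**Figure D1:**
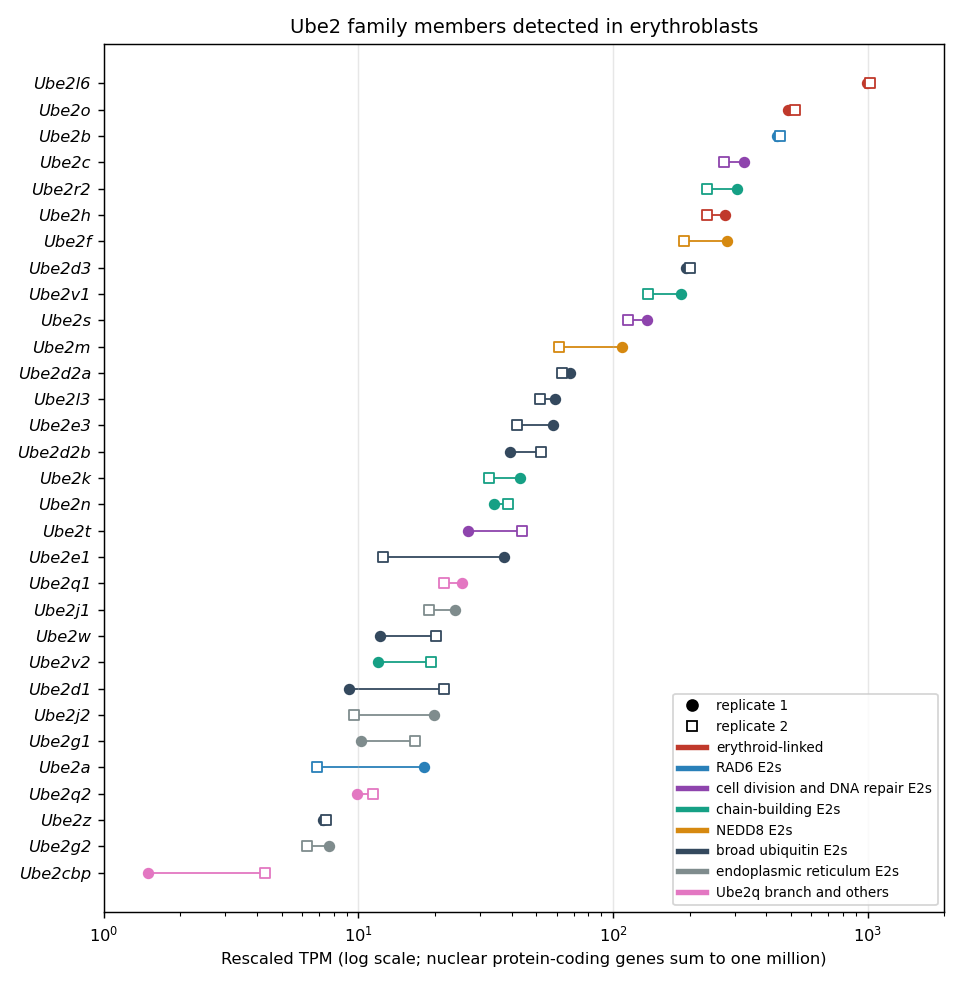
Rescaled TPM (log axis) of 31 of the 32 detected members in replicate 1 (filled circles) and replicate 2 (open squares), ordered by mean and coloured by role, with a line joining the libraries. Ube2l6 stands at 997 and 1020.4, above every other member in both libraries, and long lines mark members such as Ube2e1 and Ube2a whose libraries lie far apart.

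Ube2l6 and Ube2o were the highest members by rescaled TPM, while Ube2h stood lower, below Ube2b, Ube2c and Ube2r2 by mean. Ube2l6, the ISG15 and ubiquitin E2 on chr2:84798828-84810335 (plus strand), had 997 rescaled TPM in replicate 1 and 1020.4 in replicate 2, a mean of 1009 ± 16.5 (SD, n = 2). It was the highest member in both libraries and ranked 72 among all nuclear protein-coding genes. Ube2o, on chr11:116537740-116581447 (minus strand), had 485 and 520.1 rescaled TPM (502 ± 25.1), which put it in place 2 of the family and 191 of nuclear protein-coding genes. Its values lay wholly below those of Ube2l6, by 2.06 times in replicate 1 and 1.96 times in replicate 2. Ube2h, the E2 of the CTLH ligase, had 276 and 233 rescaled TPM (255 ± 30.3) and ranked 6 by mean. Its range overlapped those of its neighbours Ube2r2 and Ube2f, so the order among these was not resolved by the libraries.

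Ranked by expected count, which grows with transcript length and so shows the depth behind a value rather than its level, the order at the top was different. Ube2o led with 5448 counts in replicate 1 and 8266 in replicate 2. Ube2l6 had 4665 and 7664 counts, and Ube2h had 4001 and 5633. These 3 genes held the 3 highest counts of the family in both libraries. Because the level of a gene also depends on which transcript length its counts are divided by, a coding-length scale was added after the data were seen, in which a gene's counts were divided by the deposited effective length of its longest coding transcript. This scale was computed for the members only, so the levels of other genes were not checked against it. Where it moved the reported level of a member by over 1.5 times, its values stand beside that level. On this scale Ube2l6 exceeded Ube2o by 3.05 times in replicate 1 and 3.33 times in replicate 2, and 9 members stood at 100 or more in both libraries, with Ube2f below.

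Together Ube2o, Ube2l6 and Ube2h summed to 1758 and 1774 rescaled TPM, which was 40.5% of family TPM in replicate 1 and 43.7% in replicate 2. They held 51.4% and 52.3% of family counts. Their median level was 485 and 520.1, against 26.2 and 21.8 for the other 34 members. The log2 ratio of these medians was 4.21 and 4.58, a mean of 4.39 ± 0.26 (SD, n = 2). The median of the 3 genes is the level of Ube2o, and the median of the other 34 includes 5 members at 0 counts; over detected members alone the log2 ratio was 3.73. The 3 genes were named for this lineage with their levels already known, so the difference is a description.

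Ube2l3, the nearest relative of Ube2l6 in the family and the E2 of RBR ligases, had 59.0 and 51.8 rescaled TPM (55.4 ± 5.13). Ube2l6 exceeded it by 16.9 times in replicate 1 and 19.7 times in replicate 2. The range of Ube2l3 did not overlap that of Ube2d2a above it, but it did overlap that of Ube2e3 below it.

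The RAD6 enzymes, which modify histone H2B and PCNA and act in the N-degron pathway, were unequal. Ube2b had 441 and 451 rescaled TPM (446 ± 6.86) and was the highest member outside the erythroid-linked genes. Ube2a, its X-linked relative, had 18.2 and 6.86 (12.5 ± 8.0), from 93 and 56 counts. The excess of Ube2b over Ube2a was 24.3 times in replicate 1 and 65.7 times in replicate 2, with libraries close for Ube2b and far apart for Ube2a.

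E2 enzymes of cell division and DNA repair were all detected. Ube2c, which starts ubiquitin chains on substrates of the anaphase-promoting complex (APC/C), had 326 and 273 rescaled TPM (299.5 ± 37.0). Ube2s, which extends these chains, had 136 and 114 (125 ± 15.6). Both were higher in replicate 1. On the coding-length scale Ube2c stood at 132 and 109 (121 ± 15.9), close to Ube2s at 136 and 114, so the excess of Ube2c rests on the length used. All of the Ube2c TPM was assigned to Ube2c-202, of 967 bases, and the longest coding transcript Ube2c-201 has 2191 bases. Ube2t, the E2 of the Fanconi anaemia pathway, had 26.9 and 43.7 (35.3 ± 11.9) and was higher in replicate 2, and had 21.2 and 23.6 on the coding-length scale. Exons of Ube2s and of the ribosomal protein gene Rpl28 on the opposite strand share 183 bases, where reads of the genes cannot be told apart unless strand was used, which the sources do not state. Rpl28 held 918 and 1626 counts against 332 and 437 for Ube2s.

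Chain-building enzymes were all detected, with means of 269 down to 15.6 rescaled TPM. Ube2r2, an E2 of cullin-RING ligases, had 305 and 233 rescaled TPM (269 ± 51.1), while its relative Cdc34 had 19.9 and 23.7, a difference of 15.4 and 9.83 times. Ube2v1, the inactive partner of Ube2n in building lysine-63 chains, had 184 and 137 (161 ± 33.3). Ube2n, the catalytic subunit of that pair, had 34.0 and 38.6 (36.3 ± 3.27). Ube2v2, the alternative partner, had 11.98 and 19.2 (15.6 ± 5.12), so that Ube2v1 exceeded it by 15.4 and 7.14 times. On the coding-length scale Ube2v2 had 3.85 and 7.13, and the excess of Ube2v1 was 35.2 and 14.7 times. A pseudogene transcript, Gm6565, matches Ube2v2 over 438 bases at 100% identity and held 27.7% as many counts, which makes the Ube2v2 value uncertain. Ube2k, which builds lysine-48 chains, had 43.0 and 32.6 (37.8 ± 7.38), or 12.4 and 12.2 on the coding-length scale. Ube2k-201, whose length was used, has 4893 bases and held only 9.53% and 14.4% of the gene's TPM.

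Both enzymes of NEDD8 were detected. Ube2f, which passes NEDD8 to Cul5, had 279 and 190.4 rescaled TPM (235 ± 62.7). Ube2m, which passes NEDD8 to the other cullins, had 109 and 61.2 (85.02 ± 33.7). Ube2f was above Ube2m in both libraries, by 2.56 and 3.11 times, and both genes were higher in replicate 1. On the coding-length scale Ube2f had 54.3 and 43.8 (49.1 ± 7.43) and Ube2m had 53.8 and 27.3 (40.5 ± 18.7), a fold of 1.01 and 1.61. The difference therefore rests on the length used. The longest coding transcript Ube2f-203, of 5654 bases, held only 4.85% and 5.21% of the gene's TPM, while the leading Ube2f-204 has 1363 bases. Ube2m-201, whose length was used for Ube2m, was assigned no counts.

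Of the 12 enzymes with broad partners, 9 were detected. Ube2d3, one of the general E2 enzymes that work with many RING ligases, led them with 193 and 201 rescaled TPM (197 ± 5.30). Ube2d2a had 67.8 and 63.0 (65.4 ± 3.42), Ube2d2b had 39.6 and 52.2 (45.9 ± 8.91) and Ube2d1 had 9.20 and 21.8 (15.5 ± 8.89). The order Ube2d3, Ube2d2a, Ube2d2b, Ube2d1 was the same in both libraries. Coding transcripts of Ube2d2b and Ube2d2a were 90.8% identical over 553 bases, and no pair of members reached 95% over 200 bases or more. Among the Ube2e enzymes, which carry an amino-terminal extension, Ube2e3 had 58.2 and 42.0 (50.1 ± 11.5) and Ube2e1 had 37.2 and 12.6 (24.9 ± 17.4). Ube2e2 had 0 counts in both libraries. Ube2w, which can modify the amino terminus of proteins, had 12.2 and 20.2 (16.2 ± 5.66). Ube2z, charged by the E1 enzyme Uba6, had 7.27 and 7.45 (7.36 ± 0.13).

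Enzymes grouped here under the endoplasmic reticulum, a group linked to the disposal of misfolded proteins, were low within the family, and all 4 were detected. Ube2j1 had 24.0 and 19.0 rescaled TPM (21.5 ± 3.49). Ube2j2 had 19.9 and 9.61 (14.7 ± 7.27), or 8.17 and 6.43 on the coding-length scale. Ube2j2-201, whose length was used, has 3483 bases and held 0% and 17.2% of the gene's TPM. Ube2g1 had 10.3 and 16.7 (13.5 ± 4.53) and Ube2g2 had 7.70 and 6.28 (6.99 ± 1.01). As a group they made up 1.42% and 1.27% of family TPM. The remaining genes were lower still as a group, at 0.848% and 0.924% of family TPM. Among them Ube2q1 had 25.4 and 21.8 (23.6 ± 2.60) and Ube2q2 had 9.84 and 11.4 (10.6 ± 1.09). Ube2cbp, a member by its symbol alone, had 1.497 and 4.31 (2.91 ± 1.99), from 8 and 39 counts.

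The 5 members that were not detected had 0 counts in both libraries. For Ube2dnl1 and Ube2dnl2, X-linked genes related to the Ube2d enzymes, the 3 counts that a count of 0 allows would equal 1.47 rescaled TPM in replicate 1 and 0.937 in replicate 2. The limit for Ube2e2 was 1.39 and 0.891, that for Ube2u was 0.660 and 0.416, and that for Ube2ql1 was 0.350 and 0.219. In replicate 1, levels at the detection threshold were therefore not resolvable for 3 of these genes. These limits cover counting error only.

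Few neighbours in the order of levels were separated. Of the 31 pairs of neighbours among the detected members, 23 had overlapping ranges. The separated neighbours were Ube2l6 over Ube2o, Ube2o over Ube2b, Ube2b over Ube2c, Ube2d3 over Ube2v1, Ube2v1 over Ube2s, Ube2d2a over Ube2l3, Ube2q2 over Ube2z and Ube2g2 over Ube2cbp. On the coding-length scale Ube2b, at 414 and 415, stood above Ube2o, at 319 and 302. Ube2v1, at 135 and 105 on that scale, overlapped Ube2s, at 136 and 114. With 2 libraries, no overlap is a description of 4 values.

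The spread between libraries was compared as the ratio of replicate 2 over replicate 1 in counts scaled by TMM (trimmed mean of M values), over genes with 20 or more summed counts. Past 1.5 times in either direction lay 8 of 32 members, where 42.8% of all such nuclear protein-coding genes lay past it. Past 2 times lay 4 members, where 25.4% of all genes lay. Ube2e1 was 0.334 times and Ube2a 0.386 times as high in replicate 2, while Ube2d1 was 2.43 times and Ube2cbp 3.12 times as high. The other 4 past 1.5 times were Ube2v2, Ube2w and Ube2g1, higher in replicate 2, and Ube2m, higher in replicate 1. Among genes with 1000 or more summed counts, 0 of 13 members lay past 1.5 times, where 5.49% of all such genes did. At 500 or more counts, 0 of 19 members lay past 2 times, against 1.98% of all such genes, and under 500 counts 4 of 13 members did, against 35% of all such genes. Ube2l6 had a ratio of 1.05, Ube2o 0.972 and Ube2h 0.902.

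**Figure D2:**
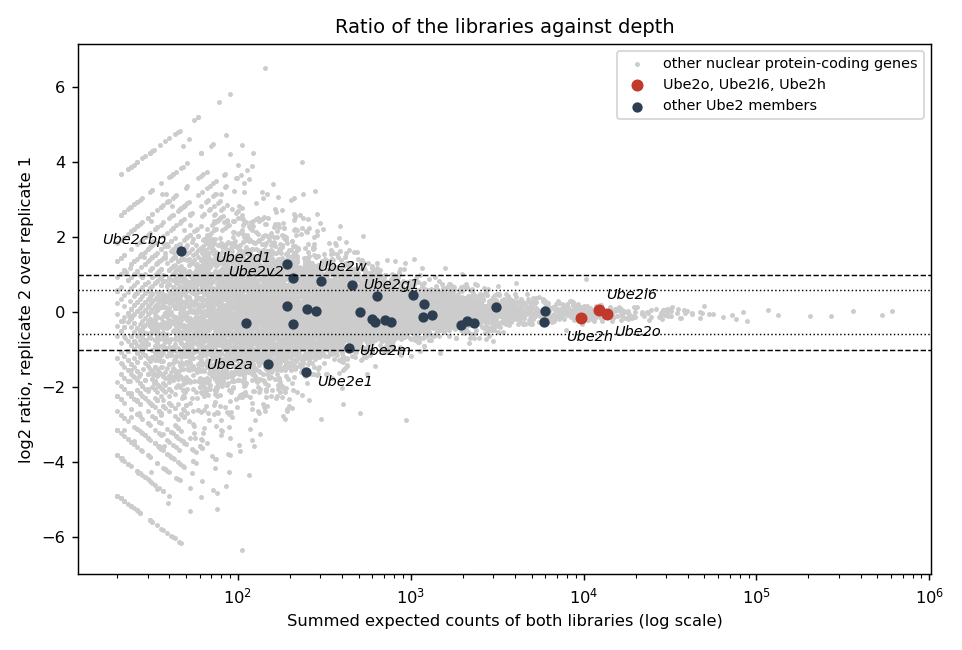
Log2 ratio of replicate 2 over replicate 1 in TMM-scaled counts against the summed expected counts of both libraries (log axis), for members and for the other nuclear protein-coding genes with counts in both. Dotted lines mark 1.5 times and dashed lines 2 times; the 3 erythroid-linked genes lie inside both at the right, and the 4 members past 2 times have under 500 counts.

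Most of the level of Ube2o was assigned to transcripts that are not annotated as coding. Its leading transcript was Ube2o-202, annotated as a processed transcript without a coding sequence, with 58.2% of the gene's TPM in replicate 1 and 54.5% in replicate 2. The coding transcript Ube2o-201 carried 25.6% and 20.0%. Ube2o was the 1 of 30 members with matched transcripts in which coding transcripts held under 50% in both libraries, where 9.72% of detected genes did so. Ube2o-202 spans chr11:116537740-116544017 on the minus strand in 9 exons, and all of its 3550 bases lie within exons of Ube2o-201, which has 5205 bases in 18 exons. On the coding-length scale Ube2o stood at 319 and 302 (311 ± 11.9) and ranked 3, below Ube2b at 414 ± 0.772 and above Ube2h at 247 ± 22.4. Ube2l6 stayed highest on that scale at 989 ± 23.5.

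Ube2l6 and Ube2h were each carried by a single coding transcript. Ube2l6-201 held 96.6% and 98.1% of the gene's TPM, and Ube2h-202 held 94.7% and 99.1%. Retained-intron transcripts held 10% or more in both libraries in 5 of 32 members, Ube2e3, Ube2f, Ube2m, Ube2r2 and Ube2v1, where 14% of detected genes passed that mark. In Ube2f they held 54.6% and 35.2%, in Ube2m 73.7% and 31.4%, and in Ube2r2 34.3% and 28.1%. The leading transcript was the same in both libraries in 20 of the 26 members with several transcripts, where 66% of all such genes kept theirs. The 6 others were Ube2v1, Ube2m, Ube2k, Ube2t, Ube2v2 and Ube2j2. For Ube2k, transcripts that hold 90.5% and 85.5% of its TPM were not matched by identifier.

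**Figure D3:**
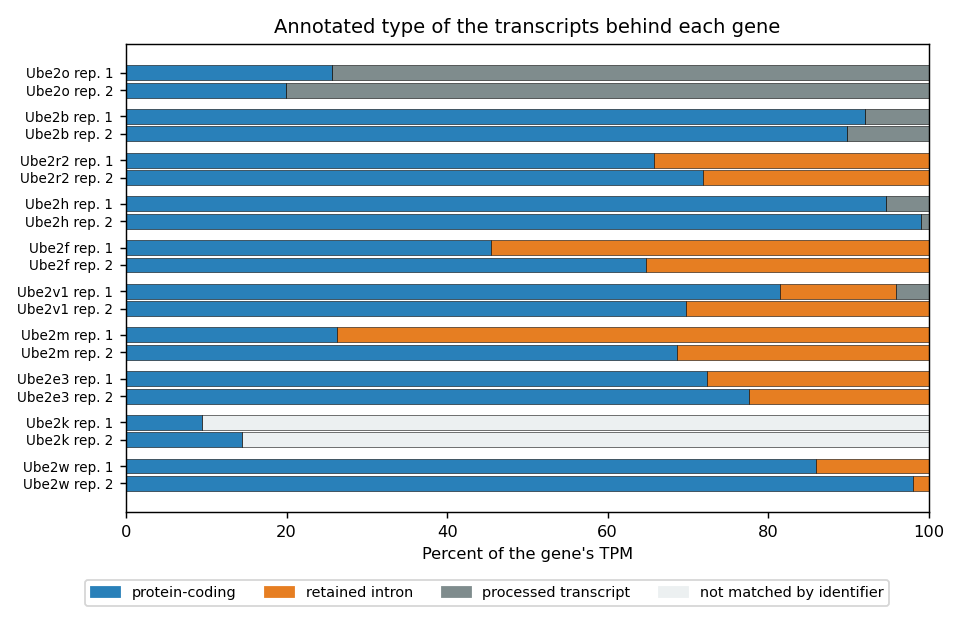
Percent of each gene's TPM carried by transcripts of each annotated type, in replicate 1 and replicate 2, for the 10 members with under 95% in coding transcripts in a library. Ube2o is mostly processed transcript, at 74.4% and 80.02%, Ube2m and Ube2f change their retained-intron share between libraries, and most of Ube2k is not matched.

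The genes that charge and receive modifiers were present throughout. All 9 E1 enzymes were detected, where 42.9% of nuclear protein-coding genes were. Uba7, the E1 of ISG15, was highest at 412 and 399.9 rescaled TPM, followed by the ubiquitin E1 Uba1 at 58.4 and 72.0 and the SUMO E1 subunit Uba2 at 70.4 and 30.0. The lowest was Uba6, the second ubiquitin E1, at 5.56 and 8.04. Of 10 modifier genes, all were detected. Ubb, a polyubiquitin gene, had 1379 and 1273 and Rps27a had 460.0 and 583, while Sumo3 was lowest at 6.42 and 20.8. Of 9 genes with an E2 fold under other symbols, 7 were detected, led by the giant apoptosis inhibitor Birc6 at 92.0 and 64.1, the UFM1 enzyme Ufc1 at 24.0 and 29.2 and the autophagy enzyme Atg3 at 30.8 and 22.4. Cdc34b had 0 counts in both. For Sumo3 the ratio of replicate 2 over replicate 1 in TMM-scaled counts was 1.79, smaller than in TPM.

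Partners of the erythroid-linked enzymes Ube2h and Ube2l6 were detected in full, where 42.9% of nuclear protein-coding genes were. In the CTLH ligase that Ube2h serves, 11 of 11 genes were detected, with Wdr26 at 939 and 886 rescaled TPM, Ranbp10 at 467 and 419 and Ypel5 at 152 and 166. Its lowest gene, the substrate receptor Gid4, had 7.91 and 3.73, and the ligase subunit Maea, chosen for mention after its value was seen, had 8.34 and 13.5. Wdr26 and Ranbp10 were higher than Ube2h itself, while the median of the list was 63.9 and 50.8. In the ISG15 system of Ube2l6, 5 of 5 genes were detected. Isg15 itself had 111 and 72.4, the ligase Herc6 had 32.9 and 40.8 and the protease Usp18, which removes ISG15, had 13.7 and 23.7. Ube2l6 was higher than each of the other 5 genes in both libraries.

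Ligases known from erythroid cells formed a list of 6, all detected, with a median of 389 and 371 rescaled TPM. Rnf123, a ligase for the cell cycle inhibitor p27, had 833 and 739.5, the RING protein Trim10 had 606 and 606, and the cullin Cul4a had 399 and 414. Trim58, a ligase known to act before enucleation, was chosen for mention after its value was seen and had 378 and 328. Keap1, the Cul3 adaptor for Nrf2, was lowest at 4.70 and 7.06. This list was drawn up with these libraries already described, so its high median carries no independent weight. The 14 core proteasome genes were all detected, with a median of 67.8 and 100.1, led by Psma2 at 151 and 165, Psma3 at 139.9 and 107 and Psma1 at 71.0 and 176. Psmb3 was lowest at 33.1 and 41.2.

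Partner lists of the other members were also mostly detected, and their medians lay below that of the CTLH list. The ISG15 list, at a median of 32.9 and 40.8 rescaled TPM, overlapped the NEDD8 and cullin list at 30.5 and 46.4. The APC/C list, served by Ube2c and Ube2s, had 15 of 15 genes detected with a median of 25.7 and 17.1 rescaled TPM. Its activator Fzr1 stood apart at 333 and 292, Anapc5 had 52.0 and 45.7, Cdc26 had 50.3 and 34.1, and Anapc10 was lowest at 2.99 and 1.18. In the NEDD8 and cullin list 12 of 12 were detected, with Cul4a highest, Cul1 at 73.1 and 124, Dcun1d1 at 61.4 and 81.8 and Cul5 lowest at 6.84 and 10.98. The cullin that Ube2f serves was thus the lowest gene of that list. For Cul1 the ratio of replicate 2 over replicate 1 in TMM-scaled counts was 0.891, so its higher TPM in replicate 2 was not matched by counts. In the SUMO list 16 of 16 were detected, with Sumo2 at 232 and 129.8 and Ranbp2 at 90.9 and 84.9. Senp5, a SUMO protease, was lowest at 4.49 and 3.73.

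All 6 RAD6 partners were detected. Pcna, the sliding clamp of replication, had 317 and 330.3 rescaled TPM, the histone ligase Rnf20 had 35.5 and 46.3 and the N-degron ligase Ubr2 had 37.4 and 30.2. Rnf40, the partner of Rnf20, was lowest at 7.70 and 9.81. Of 10 genes of endoplasmic reticulum degradation 9 were detected, led by Rnf139 at 158 and 124, Aup1 at 81.9 and 109.8 and Vcp at 87.5 and 73.3, with Derl3 lowest at 1.07 and 0. Of 10 RBR ligases and cofactors, the partners of Ube2l3, 9 were detected, led by Rnf19a at 107 and 109, Arih2 at 37.4 and 117 and Rnf14 at 65.4 and 62.4. Of 10 Fanconi genes, the partners of Ube2t, 8 were detected at a median of 4.17 and 4.41, with Fancd2 at 28.2 and 45.5, the ligase Fancl at 22.2 and 14.3 and Fancc at 4.92 and 27.1. Fancb was lowest at 1.07 and 0.196. In TMM-scaled counts the ratio of replicate 2 over replicate 1 was 1.07 for Arih2 and 1.24 for Fancc, much smaller than in TPM.

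**Figure D4:**
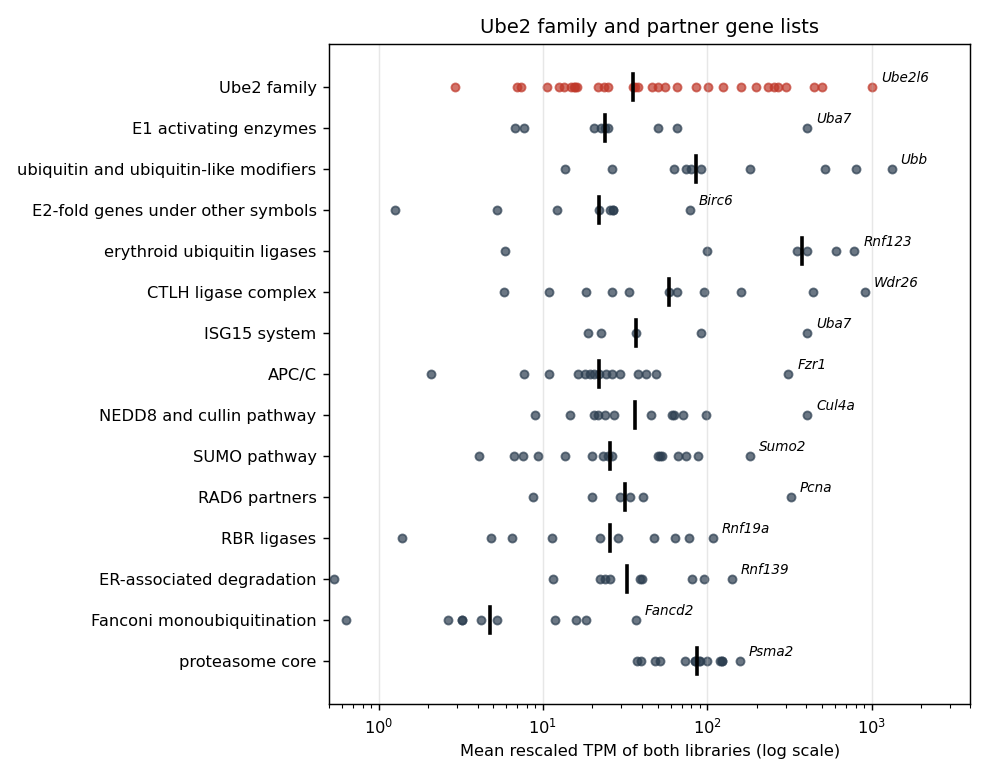
Mean rescaled TPM of both libraries (log axis) for each gene of the family (red) and of each partner list (dark), with a black bar at the list median and the highest gene named. Genes at 0 counts in both libraries (5 members and Cdc34b) are not drawn but count in the medians; the erythroid ligases have the highest median of the partner lists, 380 as the mean of the libraries' medians, and Wdr26 and Rnf123 lie close to Ube2l6.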

How the data were processed

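Total RNA of mouse erythroblasts was measured in 2 libraries of 1 group, and no p-value is given. Per the deposited read-me, the authors quantified genes and transcripts on mm10 with GENCODE M4; for the aligner, the quantifier, their versions and strandedness, nothing is given in the sources used here. Expected counts, as deposited, are estimated counts that share reads matching several places. The authors' TPM and FPKM, as deposited, cover every row, spike-ins and mitochondrial genes included, and a posterior mean of TPM was deposited beside them. The percent of a gene's TPM in each transcript was also deposited.

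Of 43346 gene rows, 42462 were matched by identifier to GENCODE M21, and 884 were not. TPM was rescaled over 21461 nuclear protein-coding genes. Expected counts were rounded for TMM factors (0.963 and 1.04; edgeR 4.0.16) over 11414 genes with 20 or more summed counts; DESeq2 1.42.0 gave alternative factors. Ratios were tested on simulated data. Copies were aligned with BLAST 2.17.0. Of the 32 detected members, 21 had whole counts (within 0.005) in both libraries and 11 did not. Roles, partner lists and tests were chosen with earlier results of these data known, and Ube2cbp was given a role after its values were seen. From each partner list the 3 highest genes and the lowest were named, apart from a few genes, a member among them, that are not reported here. Alternatives covered the unit, scaling, thresholds, transcript length and each library left out. Python 3.11.15 and R 4.3.3 were used.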

Additional observations from a re-analysis of the deposited data

How the results depend on the processing

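Of 53 values recomputed under another setting, 41 stayed within 1 SD of the libraries (counts of members, within 1.5 times), 12 moved by more than 1 SD or 1.5 times, and none reversed. Some of the 41 were fixed in advance. With 2 libraries, each lies within 1 SD of their mean by arithmetic, so leaving 1 out could not move a share or log2 ratio. FPKM differs from TPM by a constant in each library, so its values could not move either. In expected counts without length, the family's share of nuclear protein-coding signal was 0.615%, the share of Ube2o, Ube2l6 and Ube2h in the family 51.8%, and their log2 ratio over the rest 4.77. Scaling without globins gave a family share of 0.744%. In deposited TPM over all rows, 20 members were detected and the family share was 0.0205%. The log2 ratio was 3.73 over detected members alone, 4.73 without Ube2o, 3.99 without Ube2l6 and 4.98 without Ube2h. With the length of the longest coding transcript, an alternative chosen after seeing the data, the share was 47.7% and the log2 ratio 3.84. Leaving out each library gave family shares of 0.406% to 0.434%, shares of the 3 genes of 40.5% to 43.7%, log2 ratios of 4.21 to 4.58, 32 detected members each time, and 9 to 10 of the same 10 highest members. Of 224 ranks of single members, 186 held within the spread and 38 moved. FPKM, scaling without globins and deposited TPM over all rows rescale every gene of a library alike. The order within a library could not change under these settings, and their ranks are counted among the 186. Depth limits the members under 500 counts. No paired analysis was possible because there was only 1 group of libraries.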

Other observations

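Outside the protein-coding family, 4 further rows carried a Ube2 symbol. The transcribed pseudogene Ube2d-ps had 12 and 44 expected counts, or 2.14 and 4.71 rescaled TPM, a level close to that of Ube2cbp. Ube2d4 and Ube2nl, annotated as processed pseudogenes in mouse, and the antisense gene Ube2uos had 0 counts in both libraries.

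Some genes of the partner lists were far apart between the libraries and were chosen for mention after their values were seen. Ufm1, a ubiquitin-like modifier, had 27 counts in replicate 1 and 260 in replicate 2, or 6.42 and 46.3 rescaled TPM. Fance, of the Fanconi core complex, had 0 and 49 counts. Anapc13, of the APC/C, had 40 and 9 counts, or 43.0 and 5.69 rescaled TPM.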
